A study of Mus musculus with 12 samples.

Results

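Leukaemia inhibitory factor (LIF) keeps mouse embryonic stem cells (mESCs) undifferentiated in culture, and the genes described here carry its signal from the cell surface to the nucleus. They are Lifr and Il6st, which encode the receptor chains LIFR and gp130; Jak1, which encodes the kinase bound to them; Stat3, which encodes the transcription factor that the kinase phosphorylates; and the STAT3 target genes Pim1, Pim3, Gbx2 and Junb. The set was defined by gene symbol as parts of the pathway and its known targets, with no limit on a measured value. It was chosen with earlier results of these data known, and holds 8 of the 23412 genes in the deposited count tables. All 8 were found, and all 8 passed the filter on low counts in each comparison.

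RNA was sequenced in bulk from poly-A enriched libraries of v6.5, a male mESC line kept on gelatin in medium with serum and LIF. The 12 libraries are 3 biological replicates of each of 4 genotypes: wild type (WT), Hmgn1-/-, Hmgn2-/- and the double knockout Hmgn1-/-Hmgn2-/-. HMGN1 and HMGN2 are small proteins that bind nucleosomes. Each edit changed 1 bp: exon 4 of Hmgn2 holds an extra base, and a base is missing from exon 3 of Hmgn1. The double knockout has both edits. The double line descends from the Hmgn2-/- cells, which were edited again. Each knockout genotype is a line grown from a single edited cell, so 1 clone stands for each, and an effect of the clone and an effect of the genotype cannot be told apart. All libraries grew with LIF, so no comparison here is between presence and absence of the ligand.

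LIF binds LIFR, which then pairs with gp130, the signalling chain shared by the interleukin-6 family of cytokines. The paired chains bring the bound Janus kinases together, JAK1 phosphorylates STAT3 on tyrosine, and the STAT3 dimer enters the nucleus and binds target genes that hold mESCs in the self-renewing state. STAT3 also switches on Socs3, whose product damps the receptor, and phosphorylation of STAT3 is not visible in RNA, so the values below are transcript levels and not pathway activity.

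The total of all gene counts was 31448468, 17614490 and 28524108 in WT replicates 1 to 3, 25953244, 21059862 and 21993042 in Hmgn1-/-, 25908890, 26486535 and 17337908 in Hmgn2-/- and 31005479, 22151507 and 26410485 in the double knockout. Levels are given as CPM, counts relative to the library total after scaling by the trimmed mean of M values (TMM), with factors between 0.970 and 1.017 (n = 3 libraries a group, mean ± SD). Hmgn2-/- replicate 3 stood apart from the other libraries of its group. Its squared difference from replicate 1, relative to counting error, averaged 36.4 per gene and that from replicate 2 averaged 20.6, against 8.12 between Hmgn2-/- replicates 1 and 2 and 3.40 to 12.1 for pairs within the other groups. The tests of the members and the counts of pathway genes in Hmgn2-/- against WT are therefore given with and without that library, which also had the smallest total. In bulk RNA, fewer cells of a type and less RNA per cell cannot be told apart.

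The genotype labels were checked against the edited genes. Hmgn1 measured 663, 600.1 and 614 CPM in WT, 138, 139 and 142 in Hmgn1-/-, 545, 556 and 639.9 in Hmgn2-/- and 21.5, 19.9 and 21.4 in the double knockout. Both genotypes edited in Hmgn1 lie far below the other libraries, with the double knockout lowest at 3.35% of the WT mean and Hmgn1-/- at 22.3%. Hmgn2 measured 137, 123 and 119.6 CPM in WT, 105, 113 and 109 in Hmgn1-/-, 50.7, 54.6 and 53.8 in Hmgn2-/- and 53.9, 50.5 and 54.2 in the double knockout. The 6 libraries edited in Hmgn2 lie below the other 6, at 42.0% of the WT mean in Hmgn2-/- and 41.8% in the double knockout. Every library sits on the side its label gives. The 10 embryonic stem cell markers examined were all present in every group, with a summed level of 7122, 7314 and 7388 CPM in WT, 7161, 7433 and 7731 in Hmgn1-/-, 6712, 7315 and 8070.0 in Hmgn2-/- and 6689, 7340.0 and 7432 in the double knockout, and Pou5f1 the highest of them in CPM, not scaled by length, in each group.

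The members lie on 7 chromosomes of the mouse genome build GRCm38, and Lifr and Pim3 share chromosome 15. On the plus strand are Lifr at chr15:7090614-7197489, Il6st at chr13:112464070-112510086, Pim1 at chr17:29490753-29496112 and Pim3 at chr15:88862186-88865726. On the minus strand are Jak1 at chr4:101152367-101265282, Stat3 at chr11:100885098-100939540, Gbx2 at chr1:89927956-89931179 and Junb at chr8:84974484-84978718. In the annotation, 5 members overlap another gene: Gbx2, Jak1, Junb, Pim1 and Stat3. Which strand was read in counting is not given in the sources used, so counts of Jak1, Junb and Stat3 near their shared ends with Raver2, Prdx2 and Stat5a are uncertain.

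The promoters of Gbx2, Junb and Lifr are shown because these members had the highest fold changes in the double knockout. Each is the RefSeq window from 250 bases before to 50 bases after a start site, in GRCm38.p6, read 5′ to 3′ on the strand of the gene, and capitals mark motif matches. All 8 members were matched, with 10 windows between them, since Lifr and Pim1 each have 2 start sites; the Lifr window is that of start site 1. Gbx2 is at chr1:89931127-89931426 on the minus strand, Junb at chr8:84978699-84978998 on the minus strand and Lifr at chr15:7129322-7129621 on the plus strand.
Gbx2: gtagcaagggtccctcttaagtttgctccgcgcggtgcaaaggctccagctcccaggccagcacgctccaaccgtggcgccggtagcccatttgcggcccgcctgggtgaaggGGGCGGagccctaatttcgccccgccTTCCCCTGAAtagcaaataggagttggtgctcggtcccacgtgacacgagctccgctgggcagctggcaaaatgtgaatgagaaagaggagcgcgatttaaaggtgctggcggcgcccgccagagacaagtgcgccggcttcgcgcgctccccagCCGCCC
Junb: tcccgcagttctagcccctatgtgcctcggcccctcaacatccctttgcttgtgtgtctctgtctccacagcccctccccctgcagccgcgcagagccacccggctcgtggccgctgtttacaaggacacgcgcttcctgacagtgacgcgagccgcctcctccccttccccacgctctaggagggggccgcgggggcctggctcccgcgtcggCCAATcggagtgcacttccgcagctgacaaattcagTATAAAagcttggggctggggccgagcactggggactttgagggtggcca
Lifr: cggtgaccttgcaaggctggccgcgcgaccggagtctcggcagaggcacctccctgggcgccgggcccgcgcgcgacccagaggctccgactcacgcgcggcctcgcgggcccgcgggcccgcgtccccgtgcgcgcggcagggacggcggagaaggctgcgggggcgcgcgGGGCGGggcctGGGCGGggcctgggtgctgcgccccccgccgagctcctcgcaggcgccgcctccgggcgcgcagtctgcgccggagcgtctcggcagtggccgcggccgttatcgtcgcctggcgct
The motifs searched, on both strands, were the STAT palindrome TTCNNNGAA, its form with 4 bases between TTC and GAA, the CRE TGACGTCA, the AP-1 motif TGACTCA, the GC box GGGCGG, the CCAAT box CCAAT and the TATA box TATAAA, and 0 matches in member windows overlapped another match. The Gbx2 window holds TTCCCCTGAA and 2 GC boxes, the Junb window a CCAAT box and a TATA box, and the Lifr window 2 GC boxes. The STAT palindrome was in 0 of the 10 member windows and in 8.30% of all 32851 promoters of that length. The form with 4 bases between the arms was in 1 member window, that of Gbx2, and in 6.95% of all promoters. GC boxes were in 7 member windows (35.7% of all promoters), CCAAT boxes in 6 (37.4%), a TATA box in 1 (13.6%), a CRE in 1, that of Jak1 (1.79%), and the AP-1 motif in 0 (5.20%). These letters describe windows of 300 bases and say nothing about binding. Outside the members, the palindrome was present in 5 of the 57 windows of the 41 other pathway genes matched (8.77%, near the 8.30% of all promoters), among them windows of the pathway inhibitors Socs3 and Cish, of which a stretch of 30 bases each is given, with capitals for the palindrome alone, from chr11:117969501-117969530 on the minus strand and chr9:107296649-107296678 on the plus strand.
Socs3: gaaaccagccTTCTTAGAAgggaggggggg
Cish: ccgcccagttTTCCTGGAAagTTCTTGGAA

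The levels of the members were compared with one another as CPM per kb of exon. On that scale the WT means ran from 5.37 for Il6st, 6.38 for Lifr, 7.53 for Jak1 and 10.6 for Stat3 up to 28.98 for Junb, 51.6 for Pim1, 62.0 for Gbx2 and 111 for Pim3. The receptor chains, the kinase and the STAT factor were thus the lowest, and the 4 target genes the highest.

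Lifr, the chain that binds LIF, measured 61.0, 74.6 and 70.7 CPM in WT replicates 1 to 3 (68.8 ± 7.02). It measured 96.2, 88.2 and 83.7 CPM in Hmgn1-/- (89.3 ± 6.36), 103, 90.4 and 78.6 in Hmgn2-/- (90.7 ± 12.2) and 108, 107 and 94.5 in the double knockout (103 ± 7.36). All 9 knockout libraries lie above all WT libraries, the double knockout has the highest mean, and the 3 knockout groups overlap one another. Il6st, which encodes gp130, measured 53.8, 65.0 and 60.0 CPM in WT, 70.8, 73.6 and 65.1 in Hmgn1-/-, 64.9, 73.0 and 53.8 in Hmgn2-/- and 63.5, 71.1 and 61.6 in the double knockout. Only the Hmgn1-/- libraries are all above the WT libraries, the lowest of them by a narrow gap, and the other groups overlap WT. Jak1 measured 53.4, 51.3 and 58.6 CPM in WT, 60.8, 59.1 and 60.6 in Hmgn1-/-, 56.8, 59.4 and 55.3 in Hmgn2-/- and 56.8, 58.5 and 57.8 in the double knockout. Its Hmgn1-/- libraries are again above all WT libraries, while Hmgn2-/- and the double knockout lie within or near the WT range.

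Stat3 measured 98.9, 102 and 101 CPM in WT (101 ± 1.77), 132, 121 and 122 in Hmgn1-/- (125 ± 5.78), 123, 122 and 99.7 in Hmgn2-/- (115 ± 13.0) and 124, 123 and 115 in the double knockout (121 ± 4.73). The WT libraries are close together, every Hmgn1-/- and double knockout library is above them, and Hmgn2-/- replicate 3 alone among the knockout libraries falls within the WT range.

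Pim1 and Pim3 encode serine/threonine kinases that promote survival and growth. Pim1 measured 169, 179 and 172 CPM in WT, 180.2, 170.4 and 169.5 in Hmgn1-/-, 200.2, 170.1 and 155 in Hmgn2-/- and 188, 165 and 179 in the double knockout. All groups overlap, and Hmgn2-/- holds both the highest and the lowest library. Pim3 measured 260.0, 279 and 269 CPM in WT (269 ± 9.27), 307, 316 and 326 in Hmgn1-/- (316 ± 9.43), 303, 297 and 303 in Hmgn2-/- (301 ± 3.79) and 314, 304 and 309.6 in the double knockout (309 ± 5.08). The WT libraries are the lowest 3 of the 12, and the knockout libraries lie close above them.

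Gbx2 encodes a homeobox transcription factor that can sustain self-renewal downstream of STAT3. Its level was 111, 141 and 152 CPM in WT replicates 1 to 3 (135 ± 21.3). In the knockouts it was 242, 237 and 280.1 CPM in Hmgn1-/- (253 ± 23.9), 239, 238 and 251 in Hmgn2-/- (243 ± 7.50) and 261, 243 and 284 in the double knockout (263 ± 20.4). The 3 WT libraries lie far below all 9 knockout libraries, WT replicate 1 lowest, and the knockout groups overlap one another. Junb encodes a member of the JUN family of AP-1 transcription factors. It was at 62.2, 64.6 and 73.3 CPM in WT (66.7 ± 5.84), 107, 98.7 and 110.2 in Hmgn1-/- (105 ± 5.94), 106, 89.9 and 113 in Hmgn2-/- (103 ± 11.9) and 96.5, 87.8 and 103 in the double knockout (95.9 ± 7.85). Again the WT libraries are lowest with no overlap, and the double knockout has the lowest mean of the 3 knockouts.

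**Figure D1:**
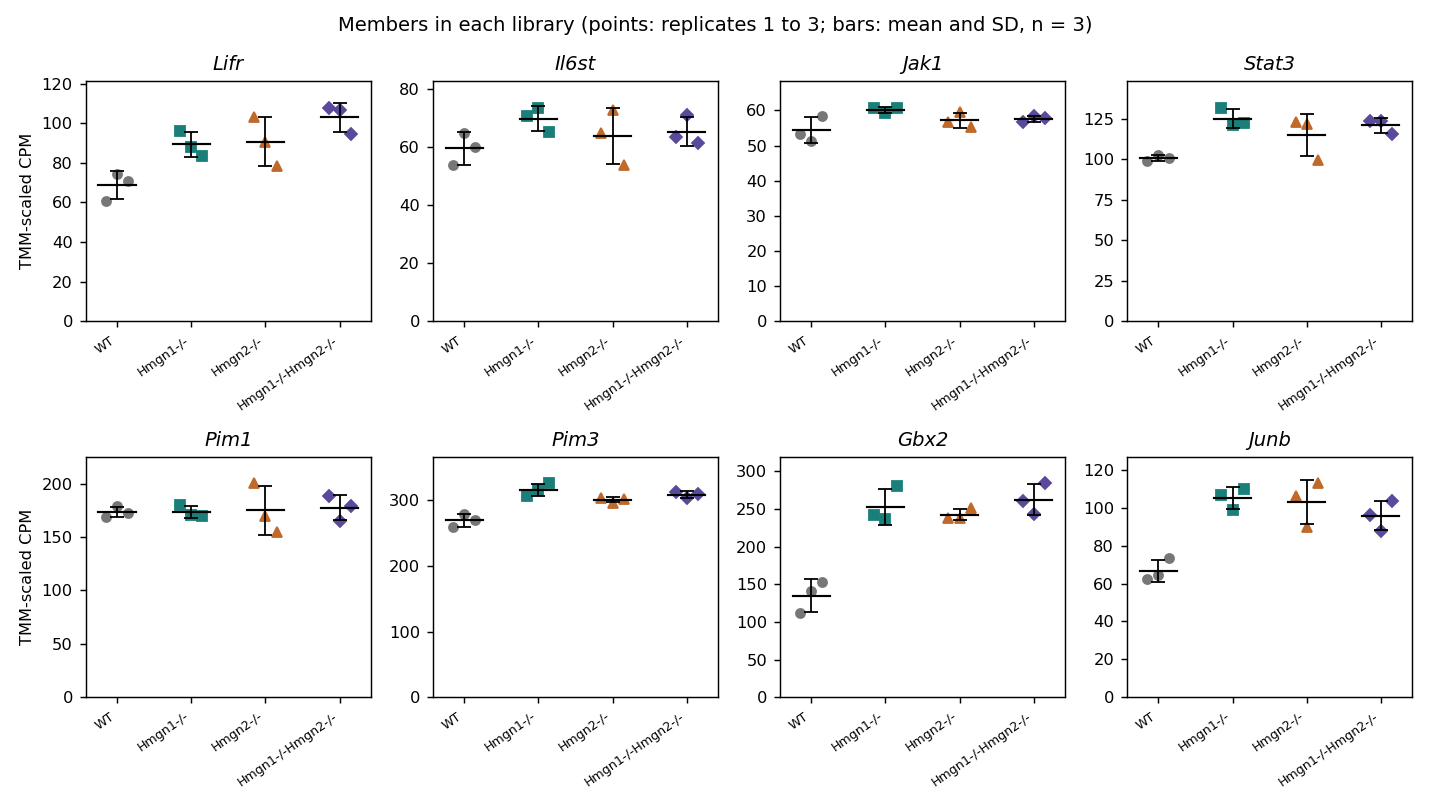
Level of each of the 8 members in each of the 12 libraries, in TMM-scaled CPM, by genotype, with points for libraries and a line for the group mean with its SD. For Gbx2 the WT points lie between 111 and 152 CPM and all knockout points at or above 237.

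The comparison of Hmgn1-/- with WT asks which members change when HMGN1 alone is lost. A gene was called when edgeR's quasi-likelihood test gave a Benjamini-Hochberg adjusted p under 0.01, over all genes tested and with no limit on the fold change. In Hmgn1-/-, 5 of the 8 members were called higher and 0 lower, against 7.28% of the 13917 genes tested called higher and 10.1% called lower. DESeq2 called the same 5, and an unadjusted p under 0.05 was reached by 7 with edgeR (38.7% of all genes) and 6 with DESeq2. Gbx2 rose by a log2 fold change of 0.91 (95% interval 0.70 to 1.12, adjusted p 1.26e-05), and Junb by 0.66 (0.51 to 0.82, adjusted p 1.49e-05), each in 3 of 3 libraries. Lifr rose by 0.39 (0.22 to 0.55, adjusted p 0.00224), Stat3 by 0.32 (0.19 to 0.44, adjusted p 0.000897) and Pim3 by 0.24 (0.12 to 0.35, adjusted p 0.00378), also in 3 of 3 libraries. Il6st (log2 fold change 0.24, adjusted p 0.0336) and Jak1 (0.15, 0.125) were not called, although all 3 Hmgn1-/- libraries lay above WT. Il6st was called with replicate number fitted as a block, a setting under which calls over all genes went from 2412 to 3396. Pim1 differed by 0.0044 (adjusted p 0.963). At the study's own limits, which also ask for a log2 fold change of at least 1 in size, edgeR called 0 members and DESeq2 called 0, against 5.98% of all genes.

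Single libraries decide part of these calls. Without WT replicate 3, Gbx2 was at 1.01 and thus past the fold limit. Lifr in Hmgn1-/- was not called without Hmgn1-/- replicate 1 (log2 fold change 0.33, adjusted p 0.0166) or with all 12 libraries in a single fit (adjusted p 0.0106). Pim3 in Hmgn1-/- was not called without WT replicate 3 (adjusted p 0.0223), Hmgn1-/- replicate 2 (0.0216) or Hmgn1-/- replicate 3 (0.0158). Gbx2, Junb and Stat3 were called with each library left out in turn, at 0.78 to 1.01, 0.61 to 0.73 and 0.28 to 0.33.

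The comparison of Hmgn2-/- with WT asks the same of HMGN2. Here 2 members, Gbx2 and Junb, were called higher and 0 lower, against 3.30% of 14047 genes called higher and 6.66% called lower. Gbx2 rose by 0.86 (0.62 to 1.09, edgeR's quasi-likelihood test, adjusted p 0.000291) and Junb by 0.64 (0.41 to 0.86, adjusted p 0.00149), in 3 of 3 libraries each. Junb was not called without WT replicate 2 (0.61, adjusted p 0.0127), which leaves 1 member called. Lifr missed the threshold at 0.41 (adjusted p 0.0232) with all 3 libraries above WT, and DESeq2 called it (adjusted p 0.00753), as did the single fit of all 12 libraries (0.00724). Stat3 was at 0.20 (adjusted p 0.161) with 2 of 3 libraries above WT, and Pim3 at 0.17 (adjusted p 0.120) with 3 of 3. Il6st, Jak1 and Pim1 differed by 0.11, 0.081 and 0.024. Past the fold limit of the study there were 0 members with edgeR and 0 with DESeq2, against 5.15% of all genes, and an unadjusted p under 0.05 was reached by 4 members with each tool (edgeR, 31.0% of all genes).

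Without Hmgn2-/- replicate 3, the library that stood apart, 4 members were called higher in Hmgn2-/-, while the share of all genes called higher went from 3.30% to 5.77% of 14340 and of those called lower from 6.66% to 7.75%. They were Gbx2 (0.83, adjusted p 0.000127), Junb (0.57, 0.000846), Lifr (0.50, 0.00181) and Stat3 (0.29, 0.00555), by the same test. Of the settings tried, only this one called Stat3 in Hmgn2-/-, whereas Lifr was also called with the library kept, by DESeq2 and in the single fit of all 12 libraries. Pim3 was not called either way (adjusted p 0.0603 without it), nor were Il6st, Jak1 and Pim1, at 0.22, 0.10 and 0.10 without it.

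In the double knockout, compared with WT to ask what loss of both proteins does, 5 members were called higher and 0 lower, against 7.79% of 14128 genes called higher and 10.2% called lower. DESeq2 called the same 5, and 5 reached an unadjusted p under 0.05 with each tool (edgeR, 38.9% of all genes). The log2 fold change of Gbx2 was 0.97 (0.76 to 1.17, edgeR's quasi-likelihood test, adjusted p 5.34e-06), that of Lifr 0.59 (0.42 to 0.76, adjusted p 8.49e-05) and that of Junb 0.53 (0.36 to 0.70, adjusted p 0.000173), each with 3 of 3 libraries above WT. In linear terms these are 1.95-fold, 1.51-fold and 1.44-fold. Stat3 rose by 0.27 (adjusted p 0.00278) and Pim3 by 0.20 (adjusted p 0.00844), in 3 of 3 libraries. Il6st, Jak1 and Pim1 differed by 0.14, 0.086 and 0.038 and were not called. Past the fold limit there were 0 members with edgeR and 0 with DESeq2, against 6.30% of all genes, but Gbx2 passed it without WT replicate 3 (1.06) or without double knockout replicate 2 (1.02).

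The calls of Pim3 and Stat3 in the double knockout were the least firm. Pim3 lost its call when any 1 of the 6 libraries was left out, with an adjusted p of 0.0214, 0.0149 and 0.0489 without WT replicates 1, 2 and 3, and of 0.0207, 0.0302 and 0.0220 without double knockout replicates 1, 2 and 3. It also lost it with at least 10 counts required in every library (0.0102) and in the single fit of all 12 libraries (0.0109). Stat3 lost its call without WT replicate 3 (adjusted p 0.0181), double knockout replicate 1 (0.0101) or double knockout replicate 2 (0.0211), and in the single fit of all 12 libraries (0.0177). That left 3 members, Gbx2, Junb and Lifr, called under each of these settings.

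The 3 comparisons with WT share the WT libraries and are not independent of one another. The members were chosen with earlier results of these data known. Their counts and medians beside those of all genes are thus descriptions, not tests of the set. Side by side, in the order Hmgn1-/-, Hmgn2-/- and double knockout, the median log2 fold change of the 8 members was 0.28, 0.18 and 0.24, and that of all genes tested was 0.0040, 0.013 and 0.0037. Lack of overlap with the WT libraries is common in these data: it held for 7, 4 and 5 of the members and for 42.0%, 35.8% and 42.4% of all genes tested.

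**Figure D2:**
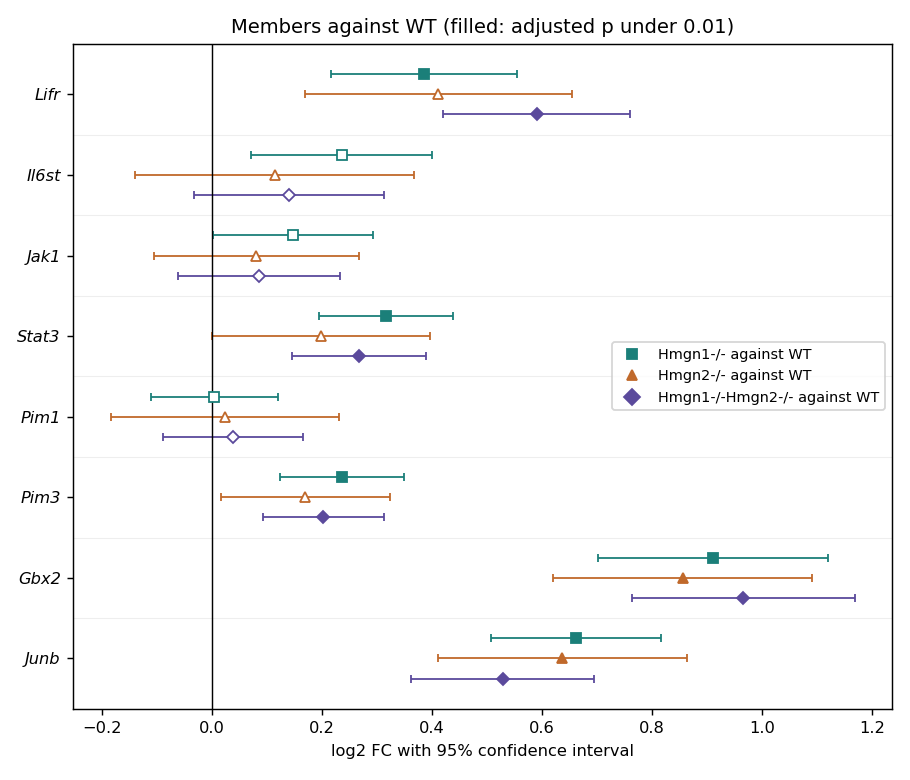
Log2 fold change against WT of each member in the 3 knockouts, with 95% confidence intervals from edgeR and a line at 0. Gbx2 is at 0.91, 0.86 and 0.97 and Pim1 at 0.0044, 0.024 and 0.038, where the Hmgn1-/- value of Pim1 changes sign under upper quartile scaling (-0.011).

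Differences between the knockouts were tested directly. Between Hmgn2-/- and Hmgn1-/-, edgeR called 0 members and DESeq2 called 0, against 0.352% of 13648 genes, and 0 reached an unadjusted p under 0.05 (3.20% of all genes). Between the double knockout and Hmgn1-/-, edgeR and DESeq2 called 0, against 1.09% of 13710 genes, and 1 reached an unadjusted p under 0.05 (9.53% of all genes). That member was Lifr, at a log2 fold change of 0.21 (0.056 to 0.35, adjusted p 0.255). With replicate number fitted as a block, Lifr was called in this comparison, for which calls over all genes under the block are not given here. Between the double knockout and its parent line Hmgn2-/-, edgeR and DESeq2 called 0, against 0.0434% of 13816 genes, and 0 reached an unadjusted p under 0.05 (4.44% of all genes). Lifr, Stat3 and Pim3 passed the threshold in Hmgn1-/- and missed it in Hmgn2-/-, and their differences between these lines were 0.025 (-0.20 to 0.25), -0.12 (-0.32 to 0.080) and -0.070 (-0.21 to 0.075), with an adjusted p of 0.9999 each. The intervals for Gbx2 were -0.24 to 0.12 between the single knockouts, -0.096 to 0.21 between the double knockout and Hmgn1-/-, and -0.052 to 0.28 between the double knockout and Hmgn2-/-, so a difference of the size seen against WT lies outside each of them.

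With both single losses and their combination in hand, the double knockout was compared with the sum of the single effects on the log2 scale, in a fit of all 12 libraries. A negative departure means that the double knockout lies below that sum. The contrast takes the loss of Hmgn1 as equal in both lines that carry it. Hmgn1 RNA, however, stood at 22.3% of the WT mean in Hmgn1-/- and 3.35% in the double knockout. Of the 8 members, 2 departed, Gbx2 and Junb, against 6.32% of 14323 genes tested, and 4 had an unadjusted p under 0.05, as had 25.9% of all genes. For Gbx2 the single effects sum to 1.77 and the double knockout reached 0.97, a departure of -0.79 (-1.09 to -0.49, edgeR's quasi-likelihood test, adjusted p 0.00160). For Junb the sum is 1.30, the double knockout reached 0.53, and the departure was -0.76 (-1.04 to -0.48, adjusted p 0.00115). In both genes all 9 knockout libraries, single or double, form a single range above WT. DESeq2 called the same 2, and so did each of the 12 fits that leave out 1 library, with departures of -0.89 to -0.67 for Gbx2 and -0.85 to -0.69 for Junb. Stat3 (-0.24), Il6st (-0.20), Lifr (-0.20), Pim3 (-0.19) and Jak1 (-0.13) also had negative departures that were not called, with an adjusted p between 0.102 and 0.424. For Lifr the single effects sum to 0.80 and its interval of -0.50 to 0.10 holds 0. Each knockout group is 1 clone, and the double knockout descends from the Hmgn2-/- line, so non-additivity of the genes and differences among clones cannot be told apart. A shift shared by all edited lines against WT would enter this contrast as a departure of the opposite sign. It cannot be told apart from non-additivity either.

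**Figure D3:**
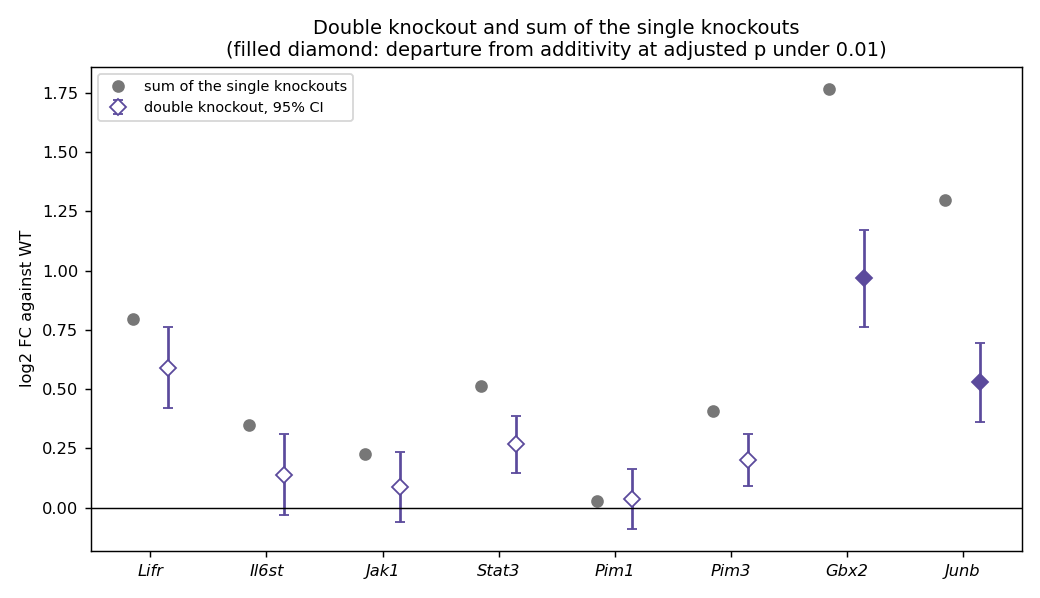
Log2 fold change of each member in the double knockout (with its 95% interval) beside the sum of the log2 fold changes of the single knockouts. Gbx2 lies at 0.97 beside a sum of 1.77, and Junb at 0.53 beside 1.30.

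The rest of the pathway was read from 7 lists of 57 genes in all: 8 ligands, 4 receptor chains, 3 Janus kinases, 6 STAT factors, 15 inhibitors, 5 adaptors of the SHP2 and ERK branch, and 16 further STAT3 target genes. These lists too were chosen with earlier results of these data known. All 57 were in the tables, and 53, 54 and 53 passed the filter on low counts in Hmgn1-/-, Hmgn2-/- and the double knockout. By edgeR's test, 14 were called higher and 6 lower in Hmgn1-/-, 8 higher and 6 lower in Hmgn2-/-, and 12 higher and 4 lower in the double knockout. The shares of all genes called higher and lower were 7.28% and 10.1%, 3.30% and 6.66%, and 7.79% and 10.2% in the same order. The median log2 fold change of the genes tested was 0.070, 0.039 and 0.025. The Hmgn1-/- count of 20 became 13 without Hmgn1-/- replicate 1, while calls over all genes went from 2412 to 1646. In Hmgn2-/- the count of 14 became 8 without WT replicate 2, 8 without WT replicate 3 and 7 without Hmgn2-/- replicate 2. Calls over all genes went from 1400 to 727, 733 and 733 in those fits. The 14 became 17 without Hmgn2-/- replicate 3, of which 13 were among the 14. That fit lost Fos (-0.97, adjusted p 0.0146) and gained Gab1 (0.37), Klf5 (0.42), Myc (0.49) and Smad7 (0.48). Between knockouts edgeR and DESeq2 called 0 of the pathway genes in each of the 3 comparisons, and 3, 10 and 2 had an unadjusted p under 0.05, which is 5.66%, 19.2% and 3.77% of those tested beside 3.20%, 9.53% and 4.44% of all genes. With replicate number fitted as a block, 2 pathway genes were called between the double knockout and Hmgn1-/-, again with no count over all genes given here. For genes outside the members, only the counts were followed through the other fits that leave out 1 library.

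Among the ligands, Lif itself was at 4.54 ± 1.27 CPM in WT, 3.07 ± 0.238 in Hmgn1-/-, 3.32 ± 0.573 in Hmgn2-/- and 3.83 ± 0.715 in the double knockout and was not called. Ctf1, which encodes cardiotrophin-1, was not called either, at 6.91, 7.80, 7.12 and 7.47 CPM in the same order. Osm, which encodes oncostatin M, was scarce, at 1.10, 1.13 and 1.67 CPM in WT, 0.269, 0.334 and 0.275 in Hmgn1-/-, 0.269, 0.341 and 0.357 in Hmgn2-/- and 0.160, 0 and 0.266 in the double knockout. It was lower in all knockout libraries than in any WT library, and its log2 fold changes were -2.14, -2.01 and -3.08 (adjusted p 0.000503, 0.00212 and 0.000439).

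Of the other receptor chains, Cntfr, which encodes the ciliary neurotrophic factor receptor that joins LIFR and gp130, measured 25.9, 37.5 and 39.5 CPM in WT. It measured 62.2, 60.7 and 61.2 CPM in Hmgn1-/-, 59.7, 61.8 and 62.6 in Hmgn2-/- and 71.3, 69.2 and 71.3 in the double knockout. Every knockout library is above every WT library, and the double knockout libraries are above those of both single knockouts. Its log2 fold changes against WT were 0.85 (adjusted p 0.000111), 0.85 (0.00138) and 1.05 (1.70e-05) in edgeR's quasi-likelihood test, and its differences of the double knockout from Hmgn1-/- (0.20) and from Hmgn2-/- (0.20) were not called (adjusted p 0.133 and 0.789). Il6ra, the interleukin-6 receptor, fell from 1.83 CPM in WT to 0.555, 0.592 and 0.824, below WT in 3 of 3 libraries each, with log2 fold changes of -1.65, -1.58 and -1.10 (adjusted p 0.00302, 0.00510 and 0.00975). Il11ra1, the interleukin-11 receptor, was at 7.58 CPM in WT and 7.93, 7.25 and 7.63 in the knockouts and was not called.

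Jak3 measured 32.7, 38.5 and 34.8 CPM in WT, 72.4, 64.3 and 67.5 in Hmgn1-/-, 66.2, 68.1 and 64.7 in Hmgn2-/- and 56.6, 63.6 and 60.2 in the double knockout. The WT libraries lie apart and below, and the kinase it encodes usually serves cytokine receptors of blood cells. It rose by 0.96, 0.92 and 0.78 on the log2 scale (adjusted p 9.89e-07, 5.06e-05 and 7.30e-06), while Jak2 fell in Hmgn1-/- by 0.64 (adjusted p 0.00496, 3 of 3 libraries) and was called in neither other knockout. Of the STAT factors, Stat5b measured 6.76, 6.68 and 7.47 CPM in WT, 13.2, 13.4 and 10.8 in Hmgn1-/-, 13.9, 14.2 and 10.4 in Hmgn2-/- and 12.8, 13.3 and 12.5 in the double knockout. All of its knockout libraries are above WT, with log2 fold changes of 0.84, 0.89 and 0.89 (adjusted p 0.000223, 0.00158 and 4.95e-05). Stat6 fell in each knockout (-0.60, -0.79 and -0.70, 3 of 3 libraries each, adjusted p 0.00266, 0.00127 and 6.23e-05), and Stat5a fell in Hmgn1-/- (-1.10, adjusted p 0.00281) and Hmgn2-/- (-1.01, adjusted p 0.00387).

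Among the 15 inhibitors, Socs2 was called higher in each knockout (0.37, 0.40 and 0.33, 3 of 3 libraries each, adjusted p 0.000266, 0.00250 and 0.00143), and Cish (0.73, adjusted p 0.00126) and Socs7 (0.35, adjusted p 0.00924) in Hmgn1-/-. Socs3, the inhibitor most tied to gp130, was singled out after its values were seen, and its promoter stretch with the palindrome is shown above. It measured 160.0, 140.1 and 154 CPM in WT, 179.8, 154 and 177 in Hmgn1-/-, 166, 135 and 166 in Hmgn2-/- and 158, 139.7 and 163 in the double knockout. The groups overlap, its log2 fold changes were 0.18 (0.024 to 0.33), 0.047 (-0.17 to 0.26; -0.0044 without Hmgn2-/- replicate 3) and 0.025 (-0.12 to 0.18), and it was not called. Of the 5 adaptors, Gab1 was called higher in Hmgn1-/- (0.35, adjusted p 0.00141) and the double knockout (0.36, 0.00136), and Ptpn11, which encodes the phosphatase SHP2, in the double knockout (0.25, 0.00527), in 3 of 3 libraries each.

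Of the 16 further STAT3 target genes, 6 were called higher and 1 lower in Hmgn1-/-, 3 higher and 2 lower in Hmgn2-/-, and 6 higher and 1 lower in the double knockout. Bcl3, which encodes a nuclear partner of NF-kappa-B, measured 50.6, 52.3 and 60.4 CPM in WT, 104, 87.6 and 95.6 in Hmgn1-/-, 96.0, 85.6 and 91.2 in Hmgn2-/- and 88.2, 83.6 and 97.0 in the double knockout. Every knockout library is above WT, and it rose by 0.82, 0.75 and 0.72 (adjusted p 6.17e-06, 0.000250 and 1.47e-05). Cebpb, a leucine zipper transcription factor gene, rose by 0.62, 0.68 and 0.49 (adjusted p 0.000359, 0.00295 and 0.00262), in 3 of 3 libraries each. Myc and Smad7 were called higher in Hmgn1-/- (0.36 and 0.46) and in the double knockout (0.49 and 0.49), and Fos lower in Hmgn2-/- (-1.04, adjusted p 0.00768). Of the naive pluripotency factors among these targets, Klf4 was called higher in each knockout (0.93, 0.69 and 0.74), Klf5 in Hmgn1-/- (0.33) and the double knockout (0.45), and Tfcp2l1 in none, at 151 CPM in WT and 158, 148 and 142 in the knockouts.

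**Figure D4:**
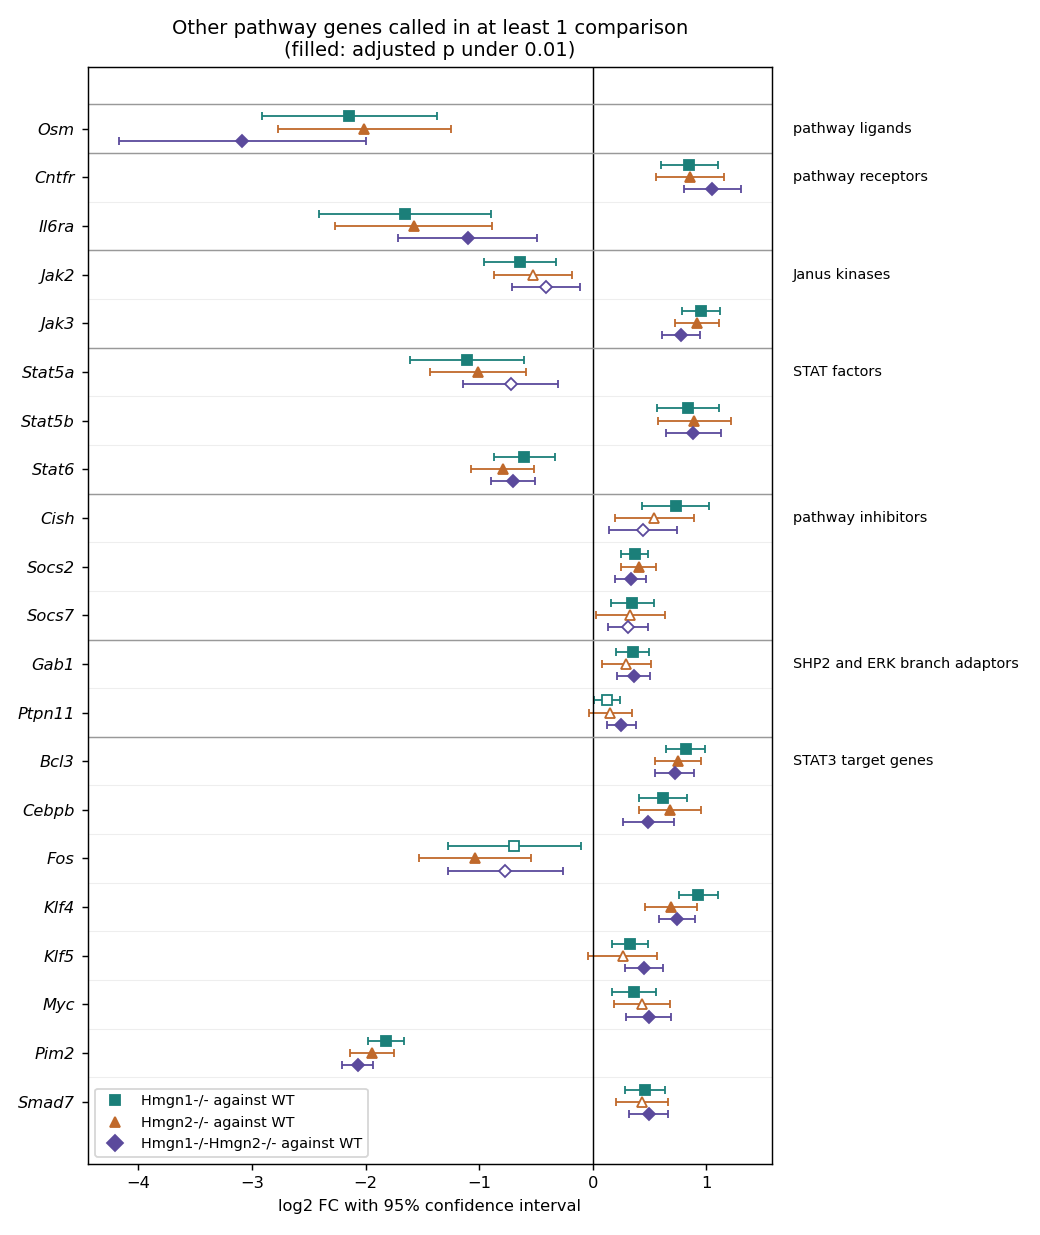
Log2 fold change against WT of pathway genes called in at least 1 of the 3 knockouts, grouped by role, with filled points for calls by edgeR's test. Osm lies lowest at -2.14, -2.01 and -3.08, and Cntfr is at 0.85, 0.85 and 1.05.

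Pim2, which belongs to the same kinase family as the members Pim1 and Pim3, measured 178, 179 and 169.8 CPM in WT, 45.1, 55.5 and 48.4 in Hmgn1-/-, 49.3, 45.9 and 40.6 in Hmgn2-/- and 43.8, 38.5 and 42.7 in the double knockout. The WT libraries lie far above all knockout libraries, and those of the double knockout lie below those of Hmgn1-/- and overlap those of Hmgn2-/-. Pim2 fell by 1.82, 1.94 and 2.07 on the log2 scale (edgeR's quasi-likelihood test, adjusted p 2.42e-09, 6.31e-07 and 7.11e-11, 3 of 3 libraries each). In the 3 scalings tried, TMM, RLE and upper quartile, Pim2 fell and Pim3 had a positive log2 fold change in each knockout, while Pim1 turned from 0.0044 to -0.011 in Hmgn1-/- under upper quartile scaling. Per kb of exon, Pim1, Pim2 and Pim3 stood at 51.6 ± 1.48, 62.8 ± 1.76 and 111 ± 3.82 CPM per kb in WT, so that Pim2 was 27.9% of the family's sum. That share was 8.90% in Hmgn1-/-, 8.42% in Hmgn2-/- and 7.64% in the double knockout, and Pim3 went from 49.2% to 65.3%, 64.6% and 65.3%. The sum of the 3 genes was 225 ± 5.72 CPM per kb in WT, 199.6 ± 3.03 in Hmgn1-/-, 192 ± 8.86 in Hmgn2-/- and 195 ± 6.53 in the double knockout. No test was made on the shares or the sum.

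**Figure D5:**
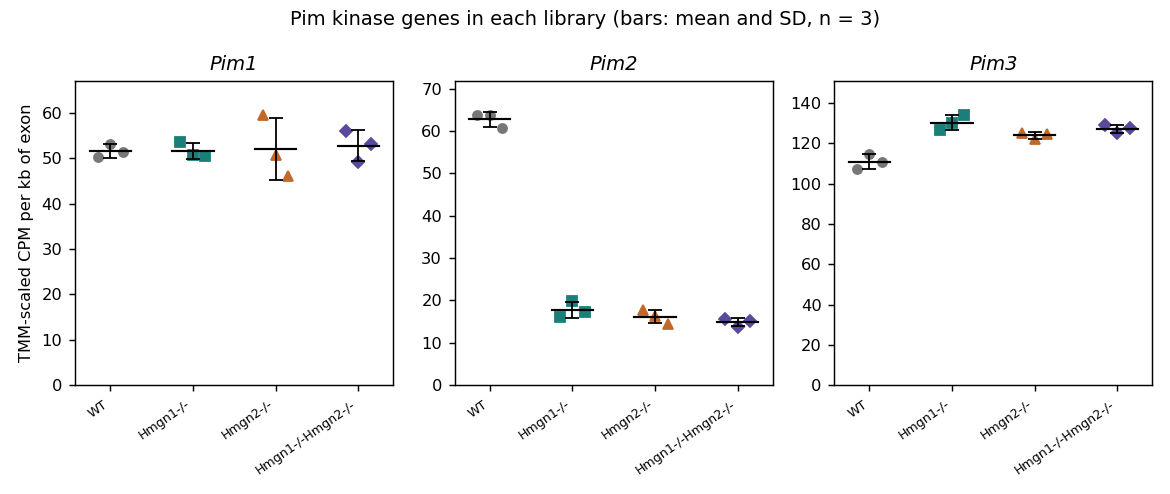
Level of Pim1, Pim2 and Pim3 in CPM per kb of exon by genotype, with a point for each of 3 libraries and bars for the group mean with its SD. Pim2 goes from a mean of 62.8 in WT to 14.9 in the double knockout, Pim3 from 111 to 127, and Pim1 stays between 51.6 and 52.8, its sign in Hmgn1-/- turning under upper quartile scaling.

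How the members vary together was described by Pearson's r of log2 CPM over the 12 libraries, which fall into 4 groups, and again after the group means were taken out. The highest pairs were Pim3 and Gbx2 (r 0.945, within groups 0.709), Gbx2 and Junb (0.931, 0.683) and Pim3 and Junb (0.888, 0.399). Lifr and Stat3 were at 0.849 over all libraries and 0.824 within groups, and Lifr and Pim1 at 0.439 and 0.731. Il6st and Junb ran in opposite directions within groups (r -0.644). All r values here include Hmgn2-/- replicate 3, the library that stood apart, and were not computed without it. Within its group that library was lowest in Lifr, Il6st, Stat3 and Pim1 and highest in Junb. All libraries of a knockout group share a clone, and an r over groups and an r within them describe different things. Among 8870 genes with a mean of at least 10 CPM, those most like Lifr were En2 (0.966), Epha2 (0.965) and Fam169a (0.962), and those most like Il6st were Mllt6 (0.947), Znf512b (0.946) and Cep85 (0.946). Jak1 was most like Akt1 (0.888), Ahi1 (0.857) and Elovl5 (0.854), and Stat3 most like Ptgfrn (0.969), Maml1 (0.968) and Zc3h7b (0.966). For the kinase targets they were Rock1 (0.941), Shprh (0.926) and Foxn2 (0.925) for Pim1 and Nefh (0.953), Wsb2 (0.950) and Slc10a7 (0.950) for Pim3. Gbx2 was closest to E2f4 (0.985), Nudt4 (0.978) and Cntfr (0.976), and Junb to Bcl3 (0.970), Ccm2 (0.968) and Cdc42se1 (0.959), so that Cntfr and Bcl3 of the pathway lists are among the nearest genes of a member. This ranking used r over all libraries, which includes the step between WT and the knockouts. Within groups, r was 0.576, 0.561 and 0.485 for Pim3 with Nefh, Wsb2 and Slc10a7. For the genes named with the other members it ran from 0.734 (Jak1 with Ahi1) to 0.972 (Pim1 with Foxn2).

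Of the genes that overlap a member, Prdx2 and Raver2, named for that reason after their values were seen, and Stat5a were in the tables. Prdx2, which meets the end of Junb on the other strand, measured 319, 309.6 and 308 CPM in WT, 361, 396 and 399.9 in Hmgn1-/-, 356, 392 and 459 in Hmgn2-/- and 356, 358 and 372 in the double knockout. All of its knockout libraries are above WT, its log2 fold changes were 0.31, 0.38 and 0.22, and it was called in Hmgn1-/- (adjusted p 0.000870) and the double knockout (0.00512) but not in Hmgn2-/- (0.0179). Its part in the counts of Junb was not tested. Stat5a, which meets the end of Stat3, had log2 fold changes of -1.10, -1.01 and -0.72, opposite in sign to those of Stat3, and Raver2, which meets that of Jak1, was not called.

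Markers of other cell states moved in the same comparisons, and their part in the results above was not tested. The gene named as leading a list has the highest CPM, not scaled by length, over the 12 libraries pooled, and need not lead in each group. The 13 primitive endoderm genes examined summed to 338, 415 and 418 CPM in WT, 739.6, 615 and 624 in Hmgn1-/-, 849, 766 and 577 in Hmgn2-/- and 1527, 1507 and 1377 in the double knockout, led by Lama1 with none at 0, and 10, 10 and 13 of them were called higher and 0 lower by edgeR's test. The knockout libraries are all above WT, and the double knockout libraries are the highest. The 8 genes of a 2-cell-like state in the tables, of 9 listed, summed to 33.8, 26.9 and 23.8 CPM in WT, 2.00, 2.29 and 1.01 in Hmgn1-/-, 2.46, 1.89 and 1.37 in Hmgn2-/- and 9.89, 8.63 and 6.53 in the double knockout, led by Zscan4c, and 8 were called lower in each knockout. The 10 fibroblast genes, as a sign of feeder cells, summed to 21.5, 17.9 and 22.5 CPM in WT, 6.98, 5.83 and 6.60 in Hmgn1-/-, 6.37, 7.12 and 6.96 in Hmgn2-/- and 6.02, 8.99 and 7.67 in the double knockout, led by Thy1 with a mean of 11.5 CPM in WT. Lum and Fap were at 0 in all libraries, and of the 4 genes tested 3 were called lower in each knockout. The 6 macrophage genes in the tables, of 7 listed, summed to 22.0, 31.3 and 33.6 CPM in WT, 8.32, 9.93 and 10.9 in Hmgn1-/-, 7.72, 8.33 and 11.7 in Hmgn2-/- and 6.34, 8.63 and 10.3 in the double knockout, led by Cd68 with a mean of 25.8 CPM in WT. Tyrobp was at 0, and of the 2 genes tested 2, 1 and 2 were called lower. These 3 lists are lower in every knockout library than in WT. Immediate early genes, which respond to cell handling, summed to 877, 869 and 927 CPM in WT, 961, 903 and 907 in Hmgn1-/-, 1032, 944 and 1062 in Hmgn2-/- and 989.5, 929.5 and 967 in the double knockout over 18 of 19 listed, led by Jund. Their sum is above every WT library in all Hmgn2-/- and double knockout libraries, the lowest of them by a narrow gap, and overlaps WT in Hmgn1-/-, while single genes differ in direction: 2, 3 and 4 of them were called higher and 6, 6 and 4 lower, and Junb is of the same class but not on that list. Of the 10 embryonic stem cell markers, 3, 0 and 1 were called higher and 1, 1 and 1 lower.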

How the data were processed

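Counts per gene, deposited by the authors for 12 poly-A libraries (3 of each of 4 genotypes), came from reads aligned to mm10 with STAR per the labels. The counting program, the annotation and the use of strand are not given in the sources used. The members and all gene lists were chosen with earlier results of these data known. Counts were scaled by TMM, filtered with filterByExpr and tested in edgeR 4.0.16 (quasi-likelihood, R 4.3.3) in 6 pairwise fits of 6 libraries and in a fit of all 12 for the departure from additivity. Calls needed a Benjamini-Hochberg adjusted p under 0.01 over all genes tested, and the study's further limit, a log2 fold change of at least 1 in size, is given beside it. Totals ran from 17337908 to 31448468 counts a library, and each test's interval carries the precision.

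Genes named were the 8 members, Hmgn1 and Hmgn2, each listed pathway gene called in at least 1 comparison with WT, listed ligands and receptors with a mean of at least 1 CPM, the 3 genes of highest Pearson correlation with each member, and the most abundant and absent markers, less any result left out of the text. Alternatives were DESeq2 1.42.0, RLE and upper quartile scaling, other count filters, counts thinned to the smallest library, replicate number as a block, a single fit of all 12 libraries, other thresholds, and each library left out in turn. The code was tested on simulated data. Positions are from GENCODE for GRCm38 and promoters from RefSeq for GRCm38.p6. Protein sequences of the Pim kinases were planned for comparison and were not analysed here. The study's other assays were not used.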

Additional observations from a re-analysis of the deposited data

Results flagged for a closer look

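In the genes below the effect of losing one of Hmgn1 and Hmgn2 differed with loss of the other, by the interaction test of edgeR's quasi-likelihood fit of all 12 libraries with Benjamini-Hochberg adjustment. Values are log2 departures of the double knockout from the sum of the single effects. Among the members these are Gbx2 (-0.79, adjusted p 0.00160) and Junb (-0.76, adjusted p 0.00115). Negative departures among the other pathway genes, each called higher in at least 1 single knockout, include Jak3 (-1.09, adjusted p 1.24e-05), Stat5b (-0.84, adjusted p 0.00526), Cish (-0.82, adjusted p 0.00569), Socs2 (-0.43, adjusted p 0.00485), Bcl3 (-0.84, adjusted p 0.000325), Cebpb (-0.80, adjusted p 0.00184) and Klf4 (-0.87, adjusted p 0.000346). Positive departures among them are Il6ra (2.14, adjusted p 0.00691), Stat5a (1.41, adjusted p 0.00885) and Pim2 (1.70, adjusted p 8.14e-07), genes that had been called lower in both single knockouts. Gbx2 and Junb kept this call with any 1 library left out. Of the pathway genes outside the members, not all of which are named here, 11 of the 54 tested were called, against 6.32% of all 14323 genes tested, and the 11 became 5 without Hmgn1-/- replicate 2 or double knockout replicate 2, 6 without WT replicate 2, Hmgn2-/- replicate 2 or double knockout replicate 3, and 7 without WT replicate 3, Hmgn1-/- replicate 1 or Hmgn2-/- replicate 1. Over all genes, 905 were called, and 582 to 1095 when single libraries were left out. The single effects use the same WT libraries, and each knockout genotype is 1 clone, so genotype and clone cannot be told apart. Nor can non-additivity be told apart from a shift shared by all edited lines against WT.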

How the results depend on the processing

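Over the single-member results against WT and for the departure from additivity, 453 values kept their direction and side of the threshold, 18 lost a call, 5 gained one and 12 changed sign, all 12 for Pim1, which was called nowhere. In Hmgn1-/- Pim1 was at -0.011 under upper quartile scaling, -0.0048 with at least 10 counts in every library and -0.018 in thinned counts. When single libraries were omitted it ran over -0.022 to 0.025 in Hmgn1-/-, -0.087 to 0.10 in Hmgn2-/-, -0.0041 to 0.087 in the double knockout and -0.064 to 0.13 for the departure from additivity. With a log2 limit of 1, the members called were 0 in Hmgn1-/-, 0 in Hmgn2-/-, 0 in the double knockout and 0 for the departure (edgeR and DESeq2 alike), and the pathway genes called were 4, 5 and 4. Of all genes tested, 5.98%, 5.15% and 6.30% passed that limit by edgeR's test in the 3 comparisons with WT. For the departure it was 499 of 14323. The single fit of all 12 libraries called 3 members in the double knockout, and replicate number as a block called 1 member, Lifr, between the double knockout and Hmgn1-/-. The cause of these changes was not tested. When single libraries were omitted, the members called ran from 4 to 5 in Hmgn1-/-, 1 to 4 in Hmgn2-/- and 3 to 4 in the double knockout, and were 0 in each fit between knockouts and 2 in each fit of the departure. The pathway genes called ran from 13 to 22, 7 to 17 and 13 to 18. Calls over all genes in the same fits ran from 1606 to 3066, 727 to 1939 and 1712 to 3029. The labels do not say that a replicate number marks a shared batch or day. Deviations from the group means correlated at -0.0064 to 0.239 between libraries of the same number (median 0.112, 11 of 18 pairs over 0.1) and at -0.231 to 0.0616 between others (median -0.0603, 0 of 36 over 0.1). Libraries of a number thus tended to deviate together, though not in every pair nor each best with its own number, and pairing is not established. With the block, Il6st was called in Hmgn1-/- (0.24, adjusted p 0.00631), 2 pathway genes between the double knockout and Hmgn1-/- and 14 for the departure. Apart from Il6st and Lifr no member's call changed. In Hmgn1-/- against WT, calls over all genes went from 2412 to 3396 with the block. Totals under the block for the other comparisons are not given here. With 1 clone for each knockout genotype, clone and genotype cannot be told apart, and fold changes of scarce genes such as Osm and Il6ra rest on few counts.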
